A study of Mus musculus with 4 samples.

Results

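Single Kit-positive bone marrow cells were selected by a rule on transcripts meant to collect T cells, natural killer (NK) cells and innate lymphoid cells, and the cells it collected are described here. A barcode was a member, called a rule cell below, if it carried at least 3 UMIs (unique molecular identifiers, counted transcripts) summed over Cd3e, Cd3d, Cd3g, Trbc2, Klrd1 and Ncr1. It also had to carry fewer than 20 UMIs per 10000 gene UMIs of the B-lineage genes Cd79a, Cd79b, Vpreb1, Vpreb3, Igll1 and Ebf1. The rule found 895 of 27166 barcodes, after barcodes with under 500 genes, under 1000 gene UMIs or over 10% mitochondrial UMIs had been removed. The mouse marrow was positive for the CD45.2 allele and for Kit, and was taken 10 weeks after transplantation. There was a single library of control marrow and of marrow with Mll3 deleted, with Mll4 deleted, and with both deleted (Mll3/4 deleted), so 4 libraries in all. The deleted genes encode histone methyltransferases and have the symbols Kmt2c and Kmt2d. The labels do not give the Cre driver, the strain, the sex or the number of donors or recipients, nor what the 2 hashtag antibodies mark.

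T cells carry a receptor made of alpha and beta or of gamma and delta chains, which signals through the CD3 proteins encoded by Cd3e, Cd3d and Cd3g. NK cells lack CD3 and rely on receptors such as the CD94 chain encoded by Klrd1 and NKp46 encoded by Ncr1. Group 2 innate lymphoid cells lack both and depend on the transcription factor Gata3. Mature cells of these kinds are a minority in marrow, and Kit, the receptor for stem cell factor, is mainly a protein of progenitors and mast cells.

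The data went against the name of the population for most of its members. Of the 895 rule cells, 719 (80.3%, exact binomial 95% interval 77.6% to 82.9%) were filled with neutrophil transcripts and carried Cd3d with almost no other gene of the rule. They are called neutrophil-gene-high rule cells below, defined by at least 400 UMIs per 10000 of S100a8, S100a9, Ngp, Camp, Ltf and Lcn2, a limit chosen after the data had been seen. Only 7 rule cells lay between 200 and 800 per 10000. The other 176 cells (19.7%) are called neutrophil-gene-low. By the limits given below, 100 of them were CD3-bearing, 61 were NK-receptor-bearing and 15 were neither. Of the 61, 30 were high in MHC class II genes, and their leading genes go against the name of NK cell. Results are given for neutrophil-gene-high and neutrophil-gene-low cells, since a pooled value describes neither.

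The deposited libraries held 10001, 9491, 6622 and 8284 barcodes for control, Mll3, Mll4 and Mll3/4 deleted in that order, of which 7768, 6341, 5649 and 7408 passed the limits. Barcodes outside the rule had median depths of 16603.5, 17707.5, 5240 and 10120 UMIs. Pairs of libraries shared 64 kept barcode sequences in all, and no rule cell of one library had the sequence of a rule cell in another. At least 20% of hashtag UMIs belonged to the lesser hashtag in 5.03% of rule cells and in 4.64% of other barcodes. In the Mll3/4 deleted library 98.9% of kept barcodes carried 20 or more B-lineage UMIs per 10000, so the population there is set against a nearly pure B-lineage background. Xist, the RNA of the inactive X chromosome, was at 626.9, 654.6 and 1695.5 CPM (gene UMIs scaled to the total of the cells summed) in the rule cells of the control, Mll3 deleted and Mll3/4 deleted libraries and had no UMI in those of the Mll4 deleted library, where the Y-linked gene Ddx3y had 6 and none was counted in the rule cells of the other libraries. The Mll4 deletion therefore cannot be told apart from the sex of the cells. Kmt2c in barcodes outside the rule stood at 47.3, 27.0, 60.1 and 34.8 CPM, and Kmt2d at 25.3, 21.7, 25.4 and 25.2 CPM, in the same order. The labels do not say which exons were removed, and counts taken near the 3′ end need not fall in them. With 1 library in each group there is no test of any difference, and all intervals cover counting error only.

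Rule cells were most common in the control library and rarest in the Mll3/4 deleted library. They made up 656 of 7768 control barcodes (8.44%, 7.84% to 9.09%), 167 of 6341 with Mll3 deleted (2.63%, 2.25% to 3.06%), 52 of 5649 with Mll4 deleted (0.921%, 0.688% to 1.21%) and 20 of 7408 with Mll3/4 deleted (0.27%, 0.165% to 0.417%). On the log2 scale the share relative to control was -1.68, -3.20 and -4.97 for Mll3, Mll4 and Mll3/4 deleted. Most of that order came from the neutrophil-gene-high cells, which numbered 586, 130, 3 and 0. The count of 0 among 20 rule cells with Mll3/4 deleted allows a share of up to 15% (3 counts of the total), and that library had only 25 neutrophil-gene-high barcodes of any kind. The neutrophil-gene-low cells numbered 70, 37, 49 and 20, or 0.901% (0.703% to 1.14%), 0.584% (0.411% to 0.803%), 0.867% (0.642% to 1.15%) and 0.27% of kept barcodes. Relative to control their log2 share was -0.63 (-1.24 to -0.03) with Mll3 deleted, -0.06 (-0.61 to 0.49) with Mll4 deleted and -1.74 (-2.53 to -1.005) with Mll3/4 deleted. The Mll4 deleted library thus held these cells in a share that counting error could not separate from that of control, although its depth was the lowest.

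The rule's limit of 3 UMIs fell where cells were many. Of barcodes within the B-lineage limit, 532 had 2 UMIs of the 6 genes and stayed out, 330 had exactly 3, 198 had 4 and 107 had 5, while 66 had 20 or more. The B-lineage limit left out 16 barcodes with 3 or more UMIs. Neutrophil-gene-high members sat close to the limit, with a median of 4 UMIs and at most 14. Neutrophil-gene-low members reached 77 UMIs, with medians of 23.5, 12, 4 and 24.5 in control, Mll3, Mll4 and Mll3/4 deleted.

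**Figure D1:**
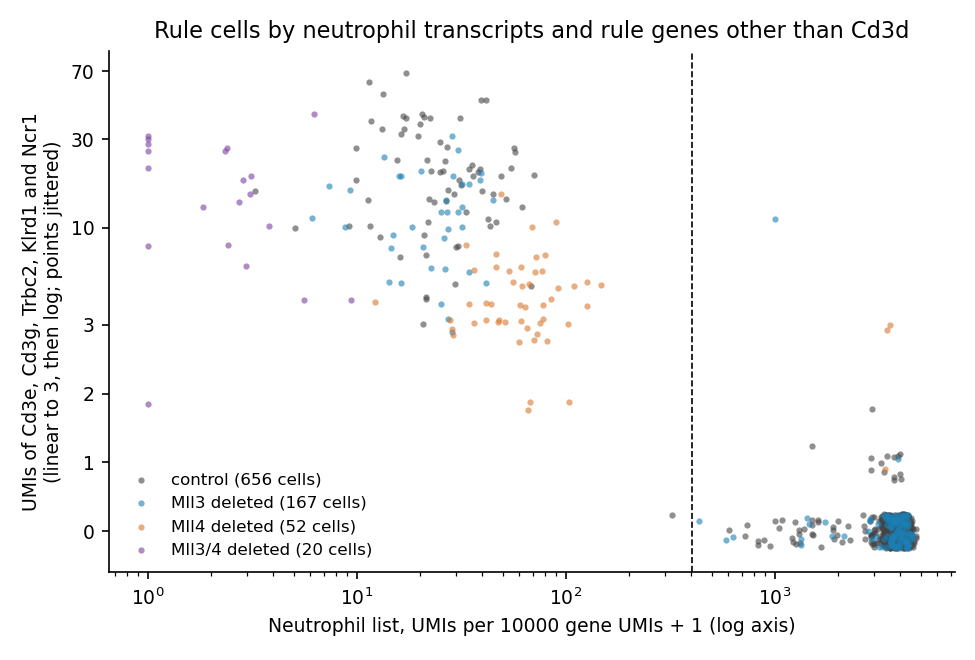
Each point is 1 of the 895 rule cells, coloured by library. The x axis gives UMIs of the 6 neutrophil genes per 10000 gene UMIs plus 1 on a log axis, the y axis the summed UMIs of the rule genes other than Cd3d, and the dashed line the limit of 400. The 719 cells to the right of the line nearly all lie at 0 on the y axis, 700 of them at exactly 0.

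Neutrophil-gene-high rule cells owed their membership to a single gene. Cd3d, the delta chain of the CD3 complex, gave 3042 of their UMIs in the 6 genes (98.9%), against 1 UMI of Cd3e, 8 of Cd3g, 9 of Trbc2, 4 of Klrd1 and 12 of Ncr1. No UMI of the other 5 genes was present in 700 of the 719 cells, and only 2 cells lacked Cd3d. In the neutrophil-gene-low cells the same 6 genes shared the UMIs, with 1048 of Trbc2, 603 of Cd3g, 539 of Klrd1, 521 of Cd3d, 229 of Cd3e and 147 of Ncr1. All of this describes the rule, which used these genes.

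**Figure D2:**
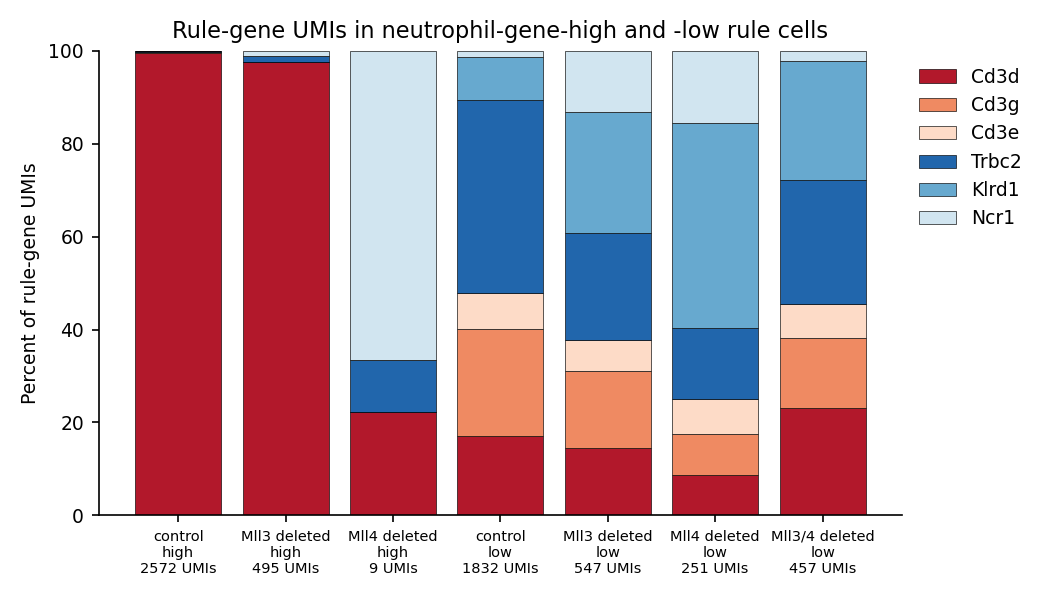
Stacked bars give the percent of rule-gene UMIs taken by each of the 6 genes in neutrophil-gene-high and neutrophil-gene-low rule cells of each library, with the number of UMIs below each bar. Cd3d fills the bars of the control and Mll3 deleted neutrophil-gene-high cells, while the largest part of any neutrophil-gene-low bar is 44.2% (Klrd1, Mll4 deleted). The Mll4 deleted neutrophil-gene-high bar rests on 9 UMIs.

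The 3 CD3 genes are neighbours, and their upstream sequences are shown because Cd3d was counted in neutrophil-gene-high cells almost without the other two. On GRCm38, by GENCODE M21, Cd3g lies at chr9:44969572-44980431 on the minus strand, Cd3d at chr9:44981786-44987339 on the plus strand and Cd3e at chr9:44998740-45009627 on the minus strand, so that Cd3g and Cd3d start next to each other and point apart. The 250 bases before each RefSeq start (GRCm38.p6) are given 5′ to 3′ on the strand of the gene. RefSeq starts Cd3e further into the gene than GENCODE does. The 3′ end of its window, with part of the last marked ETS core, therefore lies inside the GENCODE gene. Capitals mark the E-box CAGGTG and the ETS core AGGAAG on either strand.
Cd3d, chr9:44981536-44981785, plus strand: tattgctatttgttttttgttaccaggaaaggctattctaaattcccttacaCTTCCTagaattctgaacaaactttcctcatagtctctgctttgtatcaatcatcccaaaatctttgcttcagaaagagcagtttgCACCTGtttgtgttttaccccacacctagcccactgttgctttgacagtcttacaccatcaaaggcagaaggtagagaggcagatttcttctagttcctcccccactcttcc
Cd3g, chr9:44980432-44980681, minus strand: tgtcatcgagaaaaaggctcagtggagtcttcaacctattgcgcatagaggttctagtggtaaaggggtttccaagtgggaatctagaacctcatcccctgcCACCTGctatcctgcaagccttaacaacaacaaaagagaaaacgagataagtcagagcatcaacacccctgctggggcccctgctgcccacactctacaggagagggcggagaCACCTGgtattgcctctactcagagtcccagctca
Cd3e, chr9:45009612-45009861, minus strand: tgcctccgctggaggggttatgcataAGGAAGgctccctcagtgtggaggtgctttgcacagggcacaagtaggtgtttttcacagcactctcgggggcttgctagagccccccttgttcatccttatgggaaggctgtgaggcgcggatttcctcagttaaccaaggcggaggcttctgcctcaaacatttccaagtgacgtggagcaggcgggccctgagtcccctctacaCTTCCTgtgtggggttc
The Cd3d window held 1 E-box and 1 ETS core, that of Cd3g held 2 E-boxes and no ETS core, and that of Cd3e held no E-box and 2 ETS cores. Of 32851 RefSeq windows of the same length, 17.2% hold CAGGTG and 29.5% hold AGGAAG on either strand. The C/EBP motif TTGCNNAA, whose factors are known from granulocytes, is in 9.56% of windows and in none of these 3. A match or its absence describes these letters only.

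The surface antibodies, which the rule did not use, gave high counts of granulocyte proteins on the neutrophil-gene-high cells. Gr1, the antibody epitope of Ly6G and Ly6C, had medians of 694.5 antibody UMIs in control and 833.5 with Mll3 deleted, against 29 and 34 on barcodes outside the rule. The integrin CD11b stood at 287.5 and 288 against 6 and 5. CD16/32, the low-affinity Fc receptors, stood at 177 and 215 against 20 and 23. CD117, the Kit protein by which the cells had been sorted, was low, at 57 and 60 against 178 and 219. Gr1, CD11b and CD16/32 were high and CD117 low in both libraries, while the other libraries had 3 and 0 such cells.

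Granule genes and cell-cycle genes were present together in these cells, as in neutrophil-gene-high barcodes at large. The 6 neutrophil genes took a median of 3767 of every 10000 UMIs in these cells, and the division list, 11 cell-cycle genes such as Mki67 and Top2a, stood at 38.1 per 10000 against 37.1 in all neutrophil-gene-high barcodes and 19.9 in barcodes outside the rule. None of the 11 genes passed 4-fold against barcodes outside the rule, where 302 of all 9788 genes tested were higher and 663 lower. So short a list could hold none by that share alone. Mki67 was at 1020 against 543 CPM and Top2a at 947 against 555, while the replication genes Mcm6 (69.8 against 205 CPM) and Pcna (157 against 304 CPM) were among those at lower levels. Compared with the other neutrophil-gene-high barcodes of the same library, 7 of 11181 genes (0.0626%) were at least 2-fold higher and 6 (0.0537%) at least 2-fold lower in control, and 4 of 10854 (0.0369%) and 15 (0.138%) with Mll3 deleted. Elane, the neutrophil elastase of primary granules, was lower, at 219.5 against 978.8 CPM in control and 304.2 against 1627 CPM with Mll3 deleted. Prtn3, proteinase 3, followed at 266.3 against 854.6 CPM and 322.2 against 1543 CPM. Mmp9, the gelatinase of later granules, was higher, at 137.9 against 55.4 CPM and 89.9 against 34.3 CPM. In control Mmp8, the neutrophil collagenase, was also higher, at 61.0 against 23.4 CPM. Elane and Prtn3 were thus lower and Mmp9 higher in the members of both libraries.

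Cd3d was not confined to the members and was counted across the neutrophil-gene-high barcodes of the control and Mll3 deleted libraries. Among all 2004 neutrophil-gene-high barcodes of control, Cd3d had 3776 UMIs, or 126 CPM (Poisson 95% interval 122 to 130). The 1233 such barcodes with Mll3 deleted had 1108 UMIs, or 53.2 CPM (50.1 to 56.4). With Mll4 deleted, 2982 such barcodes had 51 UMIs, or 3.04 CPM (2.26 to 3.99), and the 25 with Mll3/4 deleted had 3 UMIs, or 5.38 CPM (1.11 to 15.7). The level was thus highest in control, lower with Mll3 deleted and lowest in the library with the most neutrophil-gene-high barcodes. Relative to control, the log2 ratio was -1.25 (-1.34 to -1.15) with Mll3 deleted and -5.37 (-5.80 to -4.98) with Mll4 deleted, the latter a level 41.5-fold lower. These intervals do not overlap 0, but 1 library a group gives no spread between animals, and Cd3d was looked at because the rule had picked it.

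Few other genes differed as much between these neutrophil-gene-high barcodes. With Mll4 deleted 19 of 11268 genes (0.169%) were at least 4-fold lower than in control and 31 (0.275%) higher. With Mll3 deleted 2 of 11322 (0.0177%) were lower and 4 (0.0353%) higher, Cd3d not among them. With Mll4 deleted only Xist and its antisense Tsix had a lower log2 ratio than Cd3d at a pseudocount of 1 CPM, and the median of all genes was -0.01. Xist and Tsix belong to X inactivation, and Xist had no UMI in the Mll4 deleted barcodes. With Mll3 deleted 17 genes had a lower ratio than Cd3d at that pseudocount, and at 10 CPM only S100a6, a calcium-binding protein gene, did, at 102.6 against 333.2 CPM. No other gene of GENCODE M21 overlaps Cd3d.

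Barcodes with erythroid or B-lineage genes, which should lack Cd3d, served as references. In control, Mll3 and Mll4 deleted Cd3d stood at 0.604, 0.303 and 0.338 CPM in erythroid barcodes and at 14.8, 3.75 and 6.37 CPM in B-lineage barcodes. The neutrophil-gene-high level lay above both references in control and with Mll3 deleted, and between them with Mll4 deleted. The Mll4 deleted B-lineage value rests on 170 barcodes with 470725 UMIs in all, so its place above the neutrophil-gene-high level is not settled. At least 1 Cd3d UMI was found in 71.0% of the control neutrophil-gene-high barcodes, which had a median of 13887 UMIs, and in 2.86% of control barcodes with erythroid genes, which had a median of 55009 UMIs. The share was 48.7% with Mll3 deleted, 1.64% with Mll4 deleted and 12% with Mll3/4 deleted. The erythroid share was 1.49% with Mll3 deleted and 0.575% with Mll4 deleted. After each neutrophil-gene-high barcode had been thinned to 2000 UMIs, the shares with Cd3d were 22.9%, 10.5%, 0.713% and 4% in the 4 libraries, with 36, 27, 37 and 0 shallower barcodes left out. The order of control, Mll3 deleted and Mll4 deleted was the same with and without thinning. Thinned values for Mll4 deleted rest on 21 barcodes.

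In control and with Mll3 deleted, Cd3d was higher where the late neutrophil genes Retnlg and Mmp8 were higher. In control (1876, 95 and 33 barcodes) it stood at 120 CPM with fewer than 5 UMIs per 10000 of this pair, 233 CPM between 5 and 50, and 484 CPM at 50 or more. With Mll3 deleted the same classes gave 51.8, 120 and 226 CPM, and with Mll4 deleted 3.14, 1.38 and 11.0 CPM. Control was highest and Mll4 deleted lowest within each of the 3 classes. Cd3e had 2 UMIs and Cd3g 9 in all control neutrophil-gene-high barcodes, against 3776 of Cd3d. In the Mll3 deleted library Cd3d differed between hashtags, at 38.3 CPM in the lowest class where hashtag 1 was higher and 60.9 CPM where it was not, while control gave 122 and 118 CPM.

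**Figure D3:**
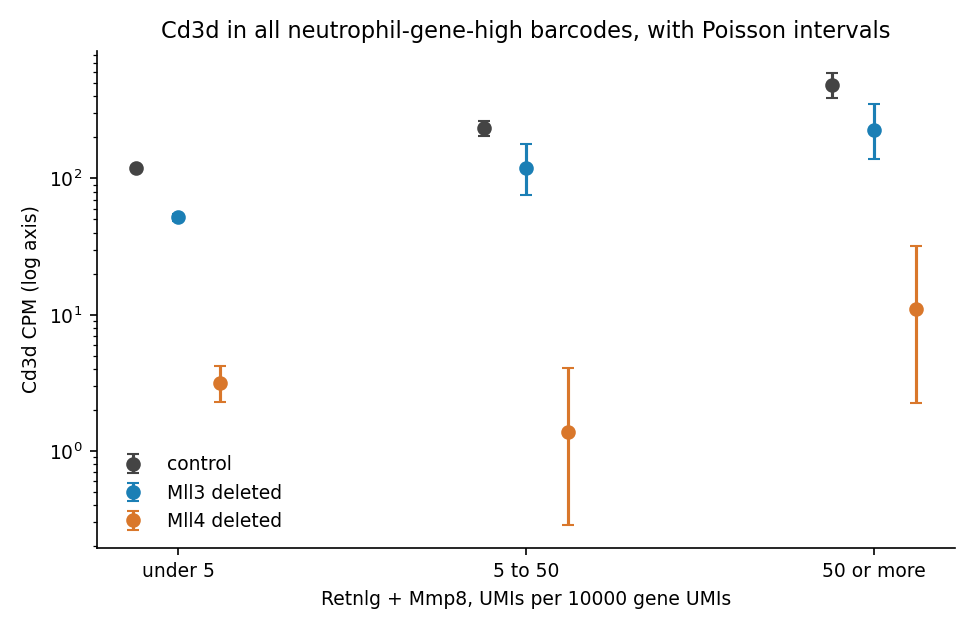
Cd3d CPM on a log axis in all neutrophil-gene-high barcodes, split by UMIs per 10000 of Retnlg and Mmp8, for the 3 libraries with enough barcodes. Bars are exact Poisson 95% intervals. Within each class control lies above Mll3 deleted and Mll4 deleted lies lowest.

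The 176 neutrophil-gene-low rule cells were divided into 3 kinds by limits on rule genes. At least 2 UMIs of Cd3e, Cd3d and Cd3g made a cell CD3-bearing, and at least 2 of Klrd1 and Ncr1 with fewer of CD3 made it NK-receptor-bearing. There were 100 CD3-bearing cells (54 in control, 18 with Mll3, 13 with Mll4 and 15 with Mll3/4 deleted), 61 NK-receptor-bearing cells (10, 15, 34 and 2) and 15 that were neither (6, 4, 2 and 3). CD3-bearing cells made up 0.695% of control barcodes (0.523% to 0.906%), and their log2 share relative to control was -1.29 (-2.15 to -0.50), -1.59 (-2.59 to -0.70) and -1.78 (-2.71 to -0.93) with Mll3, Mll4 and Mll3/4 deleted. NK-receptor-bearing cells were more common with Mll4 deleted, at a log2 share ratio of 2.23 (1.18 to 3.41), while Mll3 deleted gave 0.88 (-0.37 to 2.19) and Mll3/4 deleted -2.25 (-5.48 to -0.02). Split by MHC class II genes as described below, the Mll4 deleted ratio was 2.98 (1.43 to 4.97) for the MHC class II high kind and 1.33 (-0.23 to 3.05) for the low kind, and the low kind gave 1.41 (-0.09 to 3.09) with Mll3 deleted. The 3 libraries with a deletion thus each held fewer CD3-bearing cells per barcode than control by more than counting error. In the Mll4 deleted library a median depth of 1808 UMIs per CD3-bearing cell, against 5258 in control, stands beside that share, and its part in it was not tested. With Mll3/4 deleted 7323 of 7408 kept barcodes were at or over the B-lineage limit, against 542 of 7768 in control. The lower share of all barcodes there cannot be told apart from that B-lineage background.

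Against barcodes outside the rule, T, NK and MHC class II genes stood out in the neutrophil-gene-low cells. Of 6806 genes with 20 or more UMIs in them, 300 (4.41%) were at least 4-fold higher and 18 (0.264%) at least 4-fold lower, with a median log2 ratio of 0.04. The rule used this contrast, and genes entered by their UMIs in the members, so genes low there could not be called and the balance of higher and lower calls is a description only. In the T receptor complex list all 11 genes were higher, with a median log2 ratio of 6.33, and in the NK receptor list 16 of 16 tested, with a median of 5.81. Of the T receptor signalling list 9 of 12 were higher, led by the adaptor Skap1 (6.82), and of the cytotoxic granule list 5 of 7, led by the protease gene Ctsw (6.23). The dendritic cell and MHC class II list had 5 of 6 higher, with a median of 4.90, and 0 of 4 tested once the 30 cells chosen below for these genes were left out, with 261 of 6358 genes higher and 16 lower. None of 11 division genes passed 4-fold in either direction, and their median was -1.08. All 6 neutrophil genes were lower, as the limit required. For the whole set of 895 cells 330 of 10491 genes (3.15%) were higher and 292 (2.78%) lower. Median-of-ratios scaling moved all these ratios by 0.44 and gave 506 and 73. The 5 leading genes there, by the median over libraries, were Ccl5, a chemokine of activated T and NK cells, Il2rb, the beta chain of the interleukin-2 and interleukin-15 receptors, Xcl1, Ms4a4b and Cd7.

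CD3-bearing cells carried transcripts of all parts of the T receptor. UMIs of all 3 CD3 genes were found in 79 of 100 cells. Beta chain genes were found in 96, the alpha chain gene Trac in 63, gamma chain genes in 67 and the delta chain gene Trdc in 21. Trac without Trdc was seen in 59 cells, Trdc without Trac in 17, both in 4 and neither in 20. Erythroid reference barcodes, at a median of 51457 UMIs against 4875 here, had Trac in 0.0702%, Trbc2 in 0.738% and Trdc in 0.562%. The CD3 genes and Trbc2 belong to the rule, and rule cells were left out of the reference. Values of those genes therefore describe the selection, while Trac, Trdc, Trbc1 and the gamma chain genes were not used by it. Tcrg-C1 is no such marker, since 40.6% of the erythroid reference had it at 23.5 CPM. By library Cd3e stood at 256, 215, 723 and 389 CPM in control, Mll3, Mll4 and Mll3/4 deleted, and Cd3g at 776, 529, 837 and 777 CPM. Cd3e was highest with Mll4 deleted and Cd3g lowest with Mll3 deleted, but the Mll4 deleted values rest on 19 and 22 UMIs. The limit for CD3-bearing cells is a fixed count of CD3 UMIs, so a shallower cell needed a higher CPM to enter. Median depth was 1808 UMIs in the Mll4 deleted cells and 5258 in control. The Mll4 deleted CPM values of Cd3e and Cd3g therefore cannot be told apart from that limit.

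Most CD3-bearing cells had neither coreceptor. No UMI of Cd4, Cd8a or Cd8b1 was found in 81 of the 100, Cd8 genes alone in 17 and Cd4 alone in 2. Of the 17, 14 were in control and 1 in each other library. The coreceptor genes are low in counts from single cells, so a cell without a UMI may still express them. Ikzf2, the Helios transcription factor found in regulatory and innate-like T cells, was in 91 of 100 cells at 772 CPM, and at 743, 459, 1825 and 1246 CPM by library. The erythroid reference had it in 25.4% of barcodes at 9.71 CPM. Foxp3, the factor of regulatory T cells, was in 2 cells. Fcer1g, a signalling chain of Fc and NK receptors, was in 58 cells at 312 CPM against 10.2 CPM in the reference, and 53 cells had both Ikzf2 and Fcer1g. Cd160, a receptor of NK cells and some T cells, was in 56 and in 0.246% of the reference.

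NK-type genes were common among the CD3-bearing cells. Klrd1 was in 48 of them and in 0.211% of the erythroid reference, Ncr1 in 7, and at least 1 of Klrd1, Il2rb and Klrk1 in 84. Klrd1 and Ncr1 belong to the rule, while Il2rb and Klrk1 do not. The chemokine gene Ccl5 was in 64 cells at 2143 CPM, with 1061, 3011, 1141 and 7464 CPM in control, Mll3, Mll4 and Mll3/4 deleted, and Xcl1 in 40 at 206 CPM, against 0.316% and 0.0702% of the reference. Granzyme genes were found in 3 cells only. Nkg7 was in 89 cells at 593 CPM, although 39.8% of the erythroid reference had it at 26.9 CPM. Tcf7, a factor of naive and memory T cells, was in 64, its relative Lef1 in 44 and S1pr1, the receptor for leaving tissues, in 25, against 0.457%, 1.30% and 3.51% of the reference. Klrk1, the NKG2D receptor gene, was in 4 of 54 control cells and 12 of 18 with Mll3 deleted, at 25.7 against 302.3 CPM.

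Variable segments of the receptor genes were detected in few cells apart from 1 gamma segment. The counts do not show whether a segment was rearranged. Trgv2 was in 41 of the 100 cells (20, 7, 5 and 9 by library) and in 0 of 2847 erythroid reference barcodes, which allows up to 0.105%. Of those 41 cells, 28 had Trac and 13 did not. Tcrg-V1 followed with 13 cells and Tcrg-V4 with 5. Of 128 alpha segments in the files 12 were detected, in 12 cells, and of 35 beta segments 12, in 17 cells. The delta segment Trdv1 was in 5 cells, all with Mll3 deleted. Counts from the 3′ end of transcripts catch variable segments rarely, and Trgv2 transcripts in cells with Trac need not encode a protein.

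Kit transcripts were counted in the CD3-bearing cells, while the CD117 antibody was lower on them than on other barcodes. Kit UMIs were in 55 of 100 cells at 160 CPM and in 89.8% of the erythroid reference at 85.7 CPM. CD117 antibody had a median of 48.5, against 195 on barcodes outside the rule, and by library 40.5, 51, 47 and 55 against 178, 219, 110 and 260. The CD117 median was lower than on other barcodes in all 4 libraries. CD48, a pan-leukocyte SLAM receptor, had a pooled median of 587.5 against 251. On other barcodes its medians were 523, 407, 210 and 27 by library, and 54 of the 100 cells came from control. The pooled CD48 difference therefore mixes cells with libraries. B220, the CD45R form known from B cells, had medians of 8, 92, 30 and 19 by library against 4, 7, 8 and 14 on other barcodes. Mki67 or Top2a was found in 33 of the 100 cells, 21 of them in control and 9 with Mll3 deleted.

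Other lineages left traces in the CD3-bearing cells. The neutrophil list had a median of 26.1 per 10000, near that of barcodes with B-lineage genes in control (33.7) and Mll3 deleted (28.4), and 61 cells were at 20 or more. The erythroid list reached 20 per 10000 in 4 cells, and these held nearly all Car1, a carbonic anhydrase gene of erythroid progenitors: 957 UMIs and 1154 CPM with them, 25 UMIs and 43.0 CPM without them. CPM values weigh cells by depth, and the deepest CD3-bearing cell held 93888 of the 829504 UMIs summed. The part of the 4 cells in the other CPM values, Kit included, was not tested. Retnlg came from 1 cell, which had 321.9 neutrophil UMIs per 10000 and lay just under the limit of 400. Scrublet scores marked 16 of the 100 cells as likely doublets, against 6.84% of barcodes outside the rule. The part of doublets in the transcript lists of these cells was not tested beyond the removal reported with the alternatives.

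**Figure D4:**
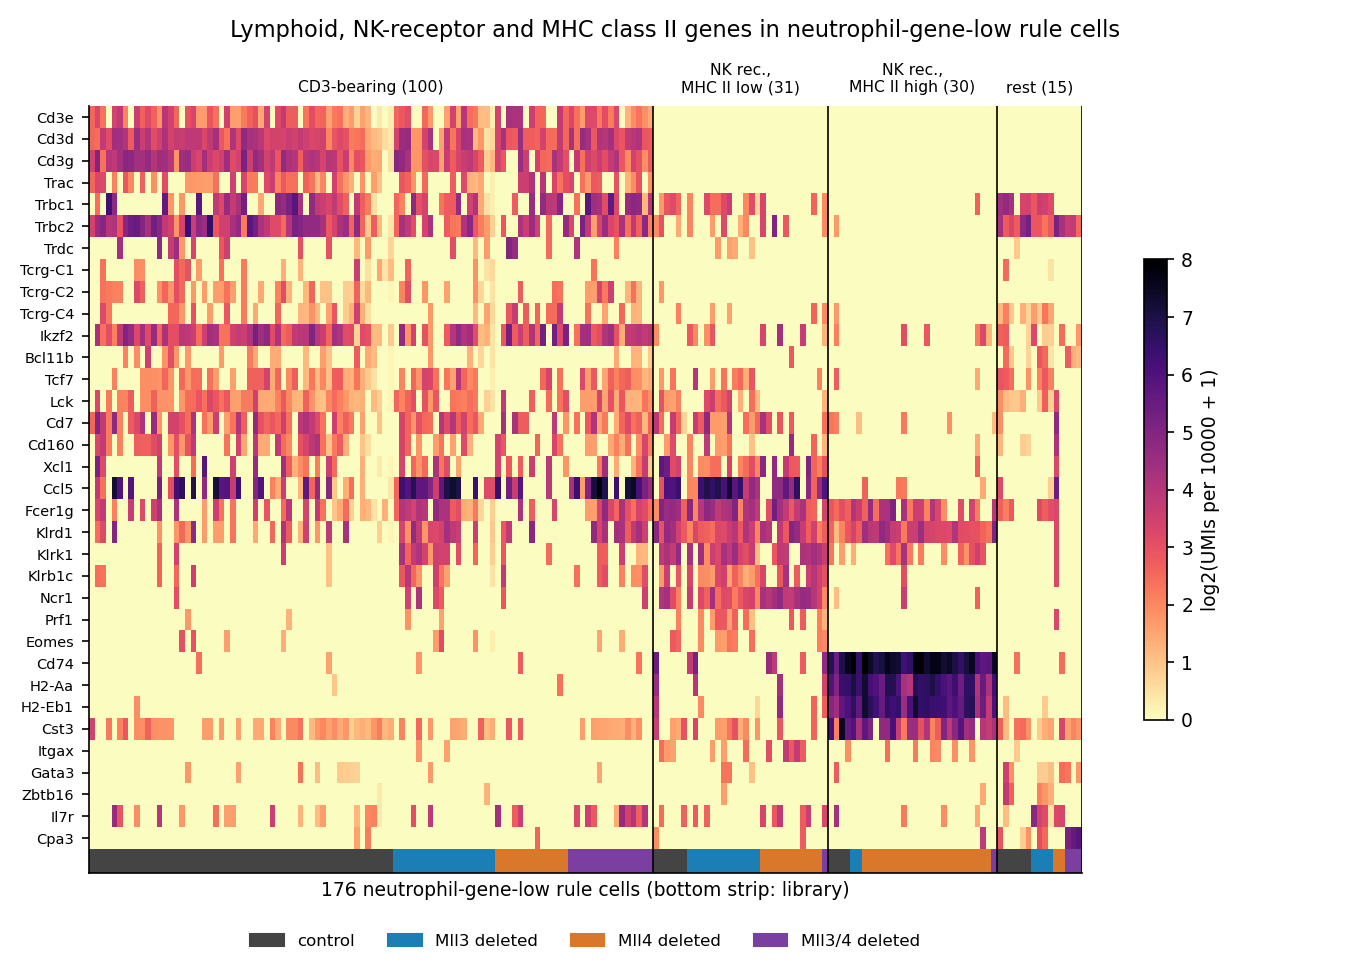
Columns are the 176 neutrophil-gene-low rule cells, ordered by kind, library (bottom strip) and depth, and rows are genes. Colour gives log2 of UMIs per 10000 plus 1. The kinds were defined by CD3, Klrd1, Ncr1 and MHC class II genes, so those rows describe the division, while Trac is seen only in the first block of 100 cells.

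NK-receptor-bearing cells came in 2 kinds that differed in MHC class II genes. The split was made at 100 UMIs per 10000 of H2-Aa, H2-Ab1, H2-Eb1, Cd74, Itgax, Xcr1 and Cst3, a limit chosen after the data had been seen, and 8 neutrophil-gene-low cells lay between 50 and 200. Of the 61 cells 31 were MHC class II low (6, 13, 11 and 1 by library) and 30 were high (4, 2, 23 and 1). Thus 23 of the 30 MHC class II high cells came from the Mll4 deleted library. Between them, 185 of 2160 genes (8.56%) were at least 2-fold higher in the low kind and 265 (12.3%) in the high kind.

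The MHC class II low kind carried genes of cytotoxic NK cells. Klrd1 and Ncr1 were both present in 27 of 31 cells, and no cell had Trac. Beta chain genes were in 20 of the 31, with Trbc1 at 302 CPM, gamma chain genes in 6 and Trdc in 4. Ccl5 stood at 4477 CPM against 28.4 CPM in the high kind, Nkg7 at 1123 against 21.3, and Xcl1 at 737 against 21.3. The Ly49 receptor genes Klra8, Klra4 and Klra9 stood at 407, 344 and 267 CPM and had no UMI in the high kind, where a count of 0 allows up to 21.3 CPM. Prf1, which encodes perforin, was in 13 cells at 154 CPM, Gzma, a granzyme, in 6 at 232 CPM and Eomes, an NK transcription factor, in 10 at 140 CPM, all 3 with none in the high kind. Of 15 NK receptor genes tested 13 were at least 2-fold higher than in the high kind and none lower, and the same held for 5 of 5 cytotoxic granule genes. Granulocyte progenitor genes were also higher, 4 of 5, with Elane at 891 against 114 CPM and Mpo at 1158 against 319 CPM. Without the 1 low-kind cell highest in that list, Elane stood at 199 and Mpo at 381 CPM. The part of these transcripts in the result was not tested. Klrd1 itself was at 961 and 951 CPM in the 2 kinds.

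The MHC class II high kind carried Klrd1 beside genes of antigen presentation. Klrd1 without Ncr1 was found in 27 of 30 cells. Cd74, the invariant chain, stood at 13699 CPM against 386 in the low kind, and H2-Aa at 7165 against 161, a difference that the split fixes. Outside the split, Ifi30, a lysosomal reductase for antigen processing, stood at 1234 CPM, Plbd1 at 525 and Cd209a, a lectin of dendritic cells, at 262, and none had a UMI in the low kind. Ms4a6c, a monocyte-list gene, was in 23 of 30 cells at 624 CPM against 63.2. T receptor signalling genes were scarce: Lck was in 0 of 30 cells and in 13 of 31 of the low kind. CD11b had a pooled median of 222 antibody UMIs against 10 on the low kind, and CD48 1486 against 562. These medians mix kind with library, since 23 of the 30 high cells but 11 of the 31 low cells were Mll4 deleted. On other barcodes CD11b was 161 in that library and 6 in control. No UMI of Cd3e, Cd3d, Cd3g or Trac was counted in the 30 cells, and Trbc1 and Trbc2 were in 1 cell each. These leading genes go against the name of NK cell, so the cells are called by their rule here.

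**Figure D5:**
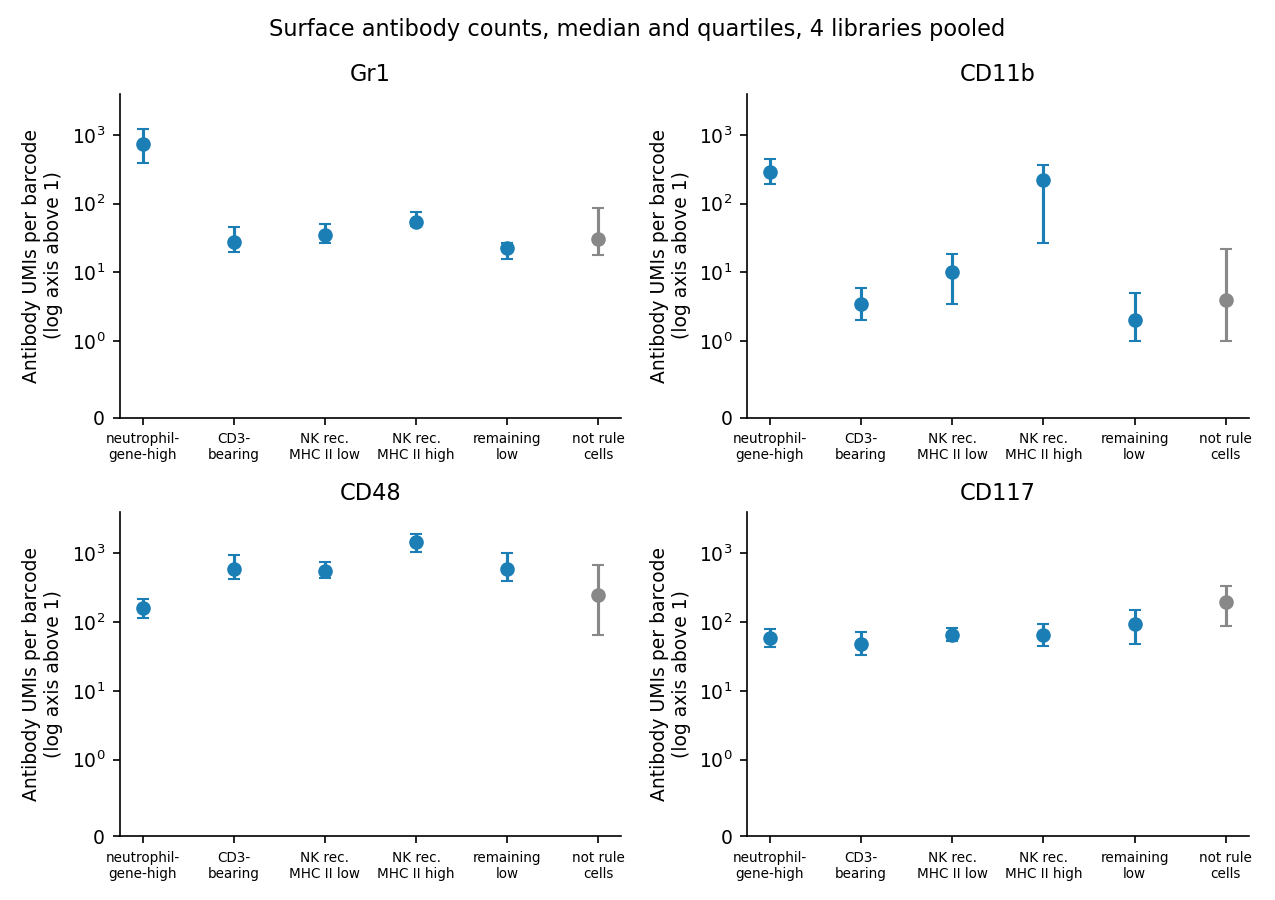
Points are median antibody UMIs per barcode with quartile bars, 4 libraries pooled, for each kind of rule cell and for barcodes outside the rule, on an axis that is logarithmic above 1. Gr1 is high only on the neutrophil-gene-high cells (727), CD11b on these and the MHC class II high kind (288 and 222), and CD117 is below the level of the other barcodes (195) on all 5 kinds. The libraries make up unequal parts of each kind.

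In the Mll4 deleted library all 34 NK-receptor-bearing cells had more of hashtag 2 than of hashtag 1. Barcodes outside the rule were at 50.7% with hashtag 1 higher there, and the 13 CD3-bearing cells at 53.8%. In control 4 of 10 and with Mll3 deleted 9 of 15 NK-receptor-bearing cells had hashtag 1 higher. The labels do not say whether hashtags mark animals or sorted fractions, so the higher share in the Mll4 deleted library cannot be told apart from what hashtag 2 marks.

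CD3-bearing cells had less of the NK receptor and granule genes than the MHC class II low NK-receptor-bearing cells. Of 5884 genes, 837 (14.2%) were at least 2-fold higher in the CD3-bearing cells and 251 (4.27%) in the other kind. Of the NK receptor list 14 of 16 tested were lower in CD3-bearing cells, and of the cytotoxic granule list 5 of 6. Klrd1 and Ncr1 are among the 14, and they describe the division, since the limits used them. Of T receptor signalling genes 3 of 12 were higher, Themis and Lat among them, and 1 lower, the kinase gene Txk at 72.3 against 315.8 CPM. Lck, the kinase that starts T receptor signalling, stood at 197 and 232 CPM. Ikzf2 stood at 772 against 105 CPM and Cd160 at 203 against 154 CPM. Of 11 division genes 5 were higher in CD3-bearing cells and none lower, and 4 of 4 erythroid genes were higher, beside the 4 cells with erythroid genes given above. Sums weigh cells by depth, and the part of those 4 cells in the counts of higher and lower genes was not tested. With both NK-receptor-bearing kinds together 617 of 6384 genes (9.66%) were higher in CD3-bearing cells and 348 (5.45%) lower. With neutrophil-gene-high cells included the counts were 635 of 10416 (6.1%) and 1343 (12.9%), and median-of-ratios scaling moved those ratios by 0.59 and gave 1152 and 651.

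The 15 neutrophil-gene-low cells of neither kind were left by the limits, which require Trbc2 and allow at most 1 UMI of CD3. Scrublet marked 7 of the 15 (46.7%) as likely doublets, against 16% of CD3-bearing cells, and their median depth was 8710 UMIs against 4875. The part of doublets in the genes below was not tested. Trbc2 stood at 1268 CPM, and Tcrg-C4 was in 9, while no cell had a UMI of Cd3e, Cd3d, Cd3g or Trac, which allows up to 20% of cells with a UMI of each. Gata3 was in 8 at 148 CPM, against 10 of 100 CD3-bearing cells at 14.5 CPM, and Bcl11b, a factor of T cell commitment, in 9. The erythroid reference had Gata3 in 2.63%, Zbtb16 in 9.17%, Rora in 0.281%, Il17rb in 0.597% and Cpa3 in 5.73% of barcodes. Zbtb16, the PLZF factor of innate-like lymphocytes, was in 5 at 188 CPM, Rora in 5 at 356 CPM and Il17rb, a receptor of group 2 innate lymphoid cells, in 5. Cpa3, the mast cell carboxypeptidase, was in 8, and 4 cells had both Cpa3 and Gata3. Il1rl1, the receptor for interleukin-33, was in 1 cell. The 3 such cells with Mll3/4 deleted had a Sca1 antibody median of 965, against 29 on other barcodes of that library.

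The rule holds no gene specific to innate lymphoid cells, and Gata3 was found in few members. Gata3, one of the 4 genes named as markers, was in 29 of the 895 rule cells and in 22 of the 176 neutrophil-gene-low ones. It was also in 736 kept barcodes outside the rule and under the B-lineage limit. Of 26271 barcodes outside the rule, 8581 were at or over that limit and were not counted. Of those 736, 19 also had Il7r and 4 had both Il1rl1 and Rora. Of the group 2 innate lymphoid list 6 genes could be tested in the neutrophil-gene-low cells, and 5 were at least 4-fold higher than outside the rule. Of all 6806 genes tested there 300 were. From that list Il7r, Il18r1 and Cxcr6 also stood at 189, 218 and 119 CPM in the MHC class II low NK-receptor-bearing cells. Of the other named markers, Cd3e had UMIs in 83 of the 100 CD3-bearing cells and Klrd1 in 60 of the 61 NK-receptor-bearing cells. Cd3e and Klrd1 were part of the limits that defined these kinds, so these counts describe the division and do not check it.

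Genes that differed between libraries over all rule cells included genes of the neutrophil list, and neutrophil-gene-high cells made up 89.3%, 77.8%, 5.77% and 0% of the 4 sets compared. With Mll3 deleted 31 of 9926 genes (0.312%) were at least 2-fold higher than in control and 2 (0.0201%) lower, at a pseudocount of 10 CPM. The 2 lower genes were Stfa1, a cysteine protease inhibitor gene of neutrophils, at 4.74 against 49.8 CPM, and S100a6 at 148 against 459 CPM. The highest were Pttg1, Pf4 and Ccl5, the last at 382 against 72.3 CPM. With Mll4 deleted 1616 of 9923 genes (16.3%) were higher and 822 (8.28%) lower, led by H2-Eb1, Cd74 and H2-Ab1 on the high side and by Xist, Retnlg and Ly6g on the low side. With Mll3/4 deleted 1613 of 9914 (16.3%) were higher and 1318 (13.3%) lower, with Ccl5 and Cpa3 highest and S100a9 and Ngp lowest. Median-of-ratios scaling moved the ratios by -0.68 in both and gave 644 higher and 1615 lower with Mll4 deleted, and 723 and 2167 with Mll3/4 deleted. In the neutrophil-gene-low cells alone 75 of 4817 genes (1.56%) were higher and 176 (3.65%) lower with Mll3 deleted, 308 of 4814 (6.4%) and 703 (14.6%) with Mll4 deleted, and 155 of 4795 (3.23%) and 808 (16.9%) with Mll3/4 deleted. These sets also differ in makeup. In library order CD3-bearing cells were 54 of 70, 18 of 37, 13 of 49 and 15 of 20, and MHC class II high cells 4, 2, 23 and 1. Summed UMIs were 688809, 321675, 128252 and 123266. The part of makeup and depth in the counts of genes was not tested.

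Within the 100 CD3-bearing cells fewer UMIs were left to compare, and with Mll3 deleted 1 cell held 54789 of the 172027 UMIs. With Mll3 deleted 52 of 4063 genes (1.28%) were at least 2-fold higher than in control and 273 (6.72%) lower. Those with the highest ratios included Klre1 (209 against 12.9 CPM) and Klrk1. Elane (1721 against 136 CPM) and Prtn3 (2180 against 245 CPM), genes of granulocyte progenitors, were also high, but through 1 cell: without it they stood at 129 and 239 CPM, and 55 of 4062 genes were higher and 307 lower. Dntt, the enzyme that adds bases at receptor joints, had no UMI with Mll3 deleted and stood at 169 CPM in control, from 5 cells. With Mll3/4 deleted 192 of 4060 genes (4.73%) were higher and 945 (23.3%) lower. Klra6, Klrb1c, Ccl5, Il7r and Hcst led, with Il7r, the interleukin-7 receptor, at 674 against 92.0 CPM. Car1, Mt1, S100a9, Lcn2 and Prtn3 were lowest, and the neutrophil list had a median of 0 per 10000 in the B-lineage barcodes of that library. With Mll4 deleted 407 of 4057 genes (10%) were higher and 1066 (26.3%) lower, from 13 cells with 26296 UMIs against 543692 in control. Of the 1066, 743 had no UMI with Mll4 deleted, where a count of 0 allows up to 114 CPM, so the number of lower genes follows the depth and is no measure of change. The same holds in part with Mll3/4 deleted, where 727 of the 945 lower genes had 3 UMIs or fewer. Xist had no UMI with Mll4 deleted against 1089 CPM in control.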

How the data were processed

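Gene transcripts and 15 antibody tags (13 surface antibodies and 2 hashtags) were counted in single cells of 4 libraries. The deposited values are UMI counts, not normalized, made with Cell Ranger 6.1.2 on mm10 per the submitters' processing notes; 10x Genomics 3′ chemistry is given in the labels' protocols. Gene positions are from GENCODE M21, which holds 32158 of the 32285 gene identifiers. The members and gene lists were chosen with earlier results of these data known, as were the limits of 400 and 100 per 10000.

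Counts were summed over cells and scaled to CPM. Ratios had a pseudocount of 1 CPM against other barcodes (4-fold called, at least 20 UMIs in the members) and 10 CPM within the members or between libraries (2-fold called, at least 20 UMIs in the sum or in either library). Named genes were those of the rule and lists, the 20 highest against other barcodes, the 12 highest and lowest between kinds, and the 5 highest and lowest per library; others were chosen after their values were seen. Erythroid reference barcodes lay outside the rule and had 20 or more UMIs per 10000 of Klf1, Ermap, Rhd and Car1. Shares carry exact binomial (Clopper-Pearson) and CPM exact Poisson intervals at 95%, and the limit for a count of 0 is 3 counts of the total. UMIs were not corrected for free RNA. Doublets were scored with Scrublet (scanpy 1.11.5, expected rate 0.06; top 0.8% per 1000 barcodes) and kept in the main results. With 1 library per group no test was made. The ratio calculation was tested on simulated data.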

Additional observations from a re-analysis of the deposited data

How the results depend on the processing

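Of 211 alternatives 116 stayed within their limits, 92 moved and 3 reversed; the cause was not tested, except where fewer cells or genes entered by construction. The 895 rule cells became 1427 with 2 UMIs needed, 367 with 5, 509 with 3 per 10000, 130 thinned to 2000 UMIs and 44 with other lineages left out. Alternatives chosen after seeing the data gave 174 without Cd3d in the rule and 176 without neutrophil-gene-high cells. The log2 share ratio for Mll3 deleted was -1.37 (2 UMIs), -1.98 (5 UMIs), -1.10 (thinned), -0.56 (other lineages out), -0.57 (Cd3d out) and -0.63 (neutrophil-gene-high out). For Mll4 deleted it was -1.83 (3 per 10000), -3.86 (minimum of 2000 UMIs), -1.76 (thinned), -3.71 (other lineages out), -0.064 (Cd3d out) and -0.055 (neutrophil-gene-high out). For Mll3/4 deleted it was -3.84 (5 UMIs), -4.01 (3 per 10000), -2.11 (thinned), -0.19 (other lineages out), -1.79 (Cd3d out) and -1.74 (neutrophil-gene-high out). No share ratio changed sign.

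By the same UMI limits over all 895 rule cells, neutrophil-gene-high ones included (2 UMIs of Cd3d alone suffice), CD3-bearing cells were 91.2%, 75% with other lineages out and 56.8% with neutrophil-gene-high out, and 73.6% (without control) to 95.1% (without Mll4 deleted) leaving out each library. NK-receptor-bearing cells were 7.15%, 11.4%, 34.7% and 22.6% to 3.32% in the same order. Neutrophil-gene-high cells were 61.6% with 5 UMIs, 12.3% thinned and 62.1% with 3 per 10000. Among neutrophil-gene-low cells CD3-bearing ones were 66.7% with 5 UMIs and 43.4% (without control) to 68.5% (without Mll4 deleted), and NK-receptor-bearing ones 24.8% and 48.1% to 21.3%.

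Genes 4-fold higher in rule cells numbered 517 at a pseudocount of 0.1 CPM, 99 at 10 CPM, 506 with median-of-ratios scaling, 169 by the mean of cell shares and 151 with other lineages out. Those lower numbered 484, 48, 73 (scaling), 121 (at least 100 UMIs), 13 (other lineages out), 18 (neutrophil-gene-high out) and, leaving out each library, 48 (without control) to 364 (without Mll3/4 deleted). For CD3-bearing against NK-receptor-bearing cells the higher genes numbered 1561 (1 CPM), 237 (50 CPM) and 1152 (scaling), and the lower 2591, 421, 651, 122 (other lineages out) and 348 (neutrophil-gene-high out). Against control, at 1 and 50 CPM, the higher genes numbered 146 and 7 with Mll3, 2696 and 434 with Mll4, and 2543 and 483 with Mll3/4 deleted, and the lower 116 and 1, 2101 and 214, and 2807 and 362. Scaling gave 644 higher and 1615 lower with Mll4 deleted, and 723 and 2167 with Mll3/4 deleted. Without neutrophil-gene-high cells there were 75 higher and 176 lower with Mll3, 308 higher with Mll4, and 155 and 808 with Mll3/4 deleted. Leaving out other lineages was not run between libraries, since under 20 control cells remained.

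The ratio of Gr1 medians to other barcodes reversed without neutrophil-gene-high cells in control (0.879) and Mll3 deleted (0.912), and as percent of antibody UMIs in Mll3/4 deleted (0.600); as percent it was 9.94 in Mll3 deleted. The CD117 ratio as percent was 0.170 and 0.120 in Mll3 and Mll3/4 deleted. The Cd3d log2 ratio for Mll3 deleted was -1.06 (limit of 1600 per 10000), -1.10 (Scrublet removal), -1.74 (hashtag 1 higher), -0.96 (hashtag 2 higher) and -1.12 (4000 to 8000 UMIs), and for Mll4 deleted -6.64 (4000 to 8000 UMIs). No paired analysis was possible because each group had 1 library. Depth limits the Mll4 deleted cells most, at a median of 2224 UMIs among neutrophil-gene-low cells.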

Other observations

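Among all neutrophil-gene-high barcodes S100a6 stood at 333.2 CPM in control and 102.6 CPM with Mll3 deleted, and it was also one of the 2 genes lower in rule cells of the Mll3 deleted library, at 148 against 459 CPM. These sets of cells overlap, so the values are not independent.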
